A study of Mus musculus with 14 samples.

Results

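The genes described here carry long-chain fatty acids into mitochondria and prepare them for it: the carnitine shuttle (Cpt1a, Cpt1b, Cpt2, Crat and Slc22a5) and the long-chain acyl-CoA synthetases (Acsl1, Acsl3, Acsl4, Acsl5 and Acsl6), 10 genes in all. They were taken by gene symbol from the array's annotation. Of the 10 genes, 8 had probe sets of their own, 19 in number, out of 45101 probe sets on the array, and 7 of the 8 were bright enough to be tested, among 12945 genes in all. Acsl6 lay below that filter. Cpt1b was represented only by a probe set that the annotation gives to Gm44502, Cpt1b and Chkb together, so its signal cannot be assigned to Cpt1b alone. Acsl1 was not analysed here. Whole subcutaneous white fat was taken from C57BL/6 males, laboratory mice of an inbred strain, at 12 weeks of age. In the exercised group (7 arrays) the mice had been housed with a running wheel for 11 days, and in the sedentary group (7 arrays) they were sedentary controls, labelled with the same 11 days.

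A fatty acid has to be joined to coenzyme A before a cell can burn it or store it, and the Acsl enzymes make that bond. Long-chain acyl-CoA cannot cross the inner mitochondrial membrane, so carnitine palmitoyltransferase 1 (Cpt1) at the outer membrane swaps the coenzyme A for carnitine, a carrier takes the acylcarnitine inside, and Cpt2 at the inner membrane swaps it back. Cpt1 is the step that malonyl-CoA inhibits. Cpt1a is known as the liver isoform and Cpt1b as the isoform of muscle, which brown fat also uses.

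All signals were made with MAS5, the array maker's summary of a probe set, and are on a linear scale with the same trimmed mean on every array. Array medians lay between 531.3 and 617.4 signal units, and the precision of each value is set by how many arrays there were. Differences are exercised minus sedentary on the scale log2(signal + 46.7), which understates changes of weakly expressed genes, and a gene is said to have risen or fallen where limma gave an adjusted p under 0.05 over all genes tested. Whether the arrays stand for different mice is not stated, and the p-values therefore rest on a spread between arrays that could be technical. The depot is a mixture of cells, and more cells of a type and more RNA per cell cannot be told apart in it. The adipocyte gene Adipoq, which encodes adiponectin, had a median signal of 57027 on exercised and 54272 on sedentary arrays, so the tissue's defining marker was present in both groups. Sedentary array 5 had the lowest mature adipocyte marker mean (13.95 log2 units) and the highest macrophage marker mean (13.57) of all 14 arrays, and sedentary array 7 had the lowest mean of brown and beige adipocyte markers (8.83). Among the 7 genes tested, only the call of Slc22a5 changed without both arrays. The rises of Cpt2, Crat and the Gm44502, Cpt1b and Chkb probe set became smaller without both, as given below.

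Of the 7 genes tested, Cpt2 and Crat rose and 0 fell, where limma called 5.53% of all 12945 genes, with 4.0% higher and 1.53% lower in exercised tissue. These shares depend on single arrays: with 1 array left out, 309 to 591 genes were higher and 79 to 262 lower, against 518 and 198 with all arrays, and median centring gave 547 higher and 86 lower. The totals called were 425, 410, 414 and 402 without exercised arrays 1, 3, 5 and 7, against 716. Cpt2 and Crat passed with each array left out. The other 5, Cpt1a, Slc22a5, Acsl3, Acsl4 and Acsl5, did not pass the test. All 7 differences were positive, as were those of 45.0% of all genes, with a median of 0.26, where the median of all genes was -0.03. The largest difference in the group was that of the Gm44502, Cpt1b and Chkb probe set, which rose 5.23-fold. At an unadjusted p under 0.05 there were 4 of the 7, all higher (Acsl5 and Acsl3 besides the pair that rose), against 21.8% of all genes, or 11.3% counting those higher. Fitted probe set by probe set, 3 of the 16 that passed the filter and have 1 symbol rose (1 of Cpt2 and 2 of Crat), where 3.83% of all probe sets were called and 2.78% rose.

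**Figure D1:**
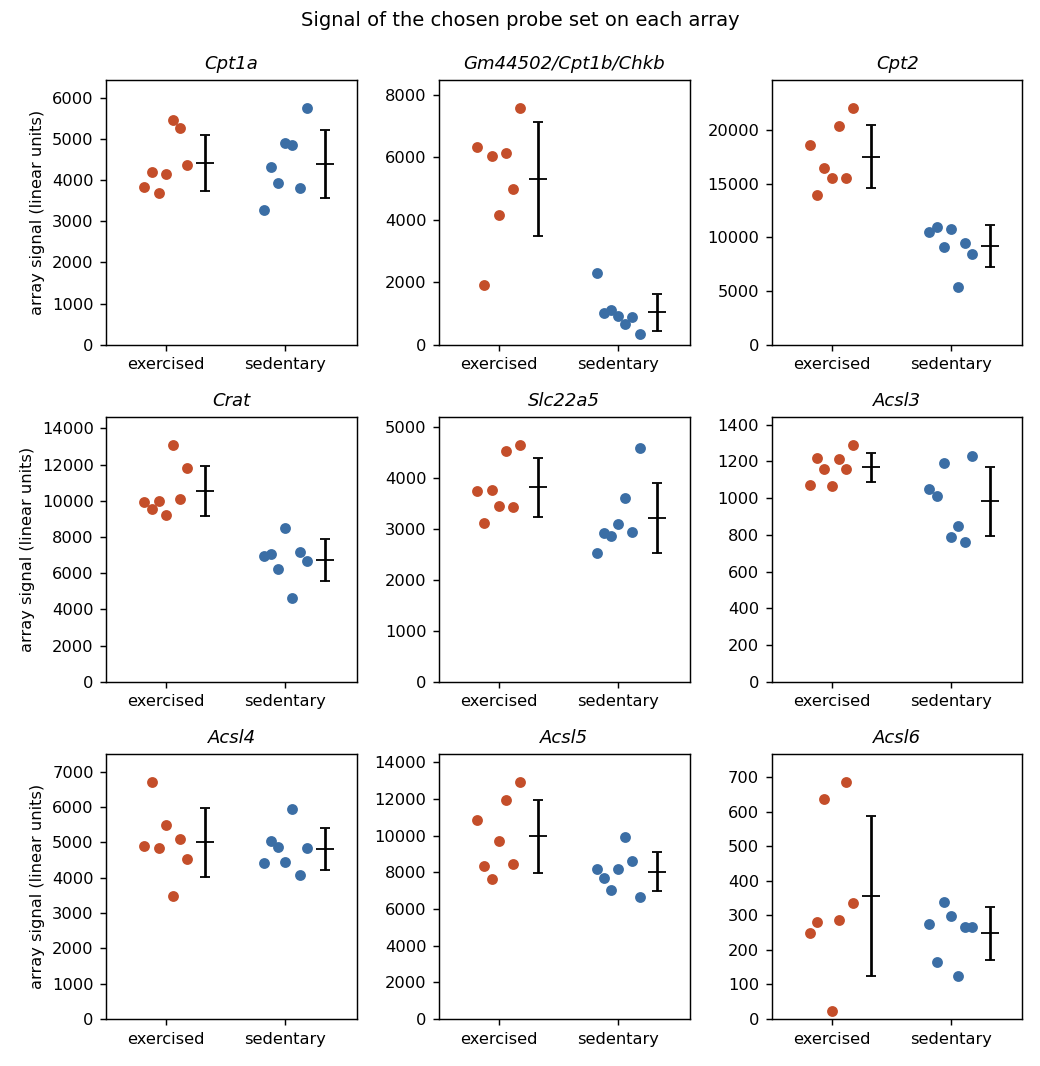
Array signal (linear units, axes from 0) of the probe set with the highest mean for each gene, 1 point per array, exercised left and sedentary right, with the mean and SD beside the points (7 arrays each). The groups are apart for Cpt2 and Crat, nearly apart for the Gm44502, Cpt1b and Chkb probe set, and overlap for the others.

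Cpt1 catalyses the entry step. Cpt1a did not pass the test, while the probe set shared by Cpt1b and its neighbours rose. Cpt1a had signals with a lowest value of 3681, a median of 4194 and a highest of 5457 on exercised arrays, against 3275, 4317 and 5755 on sedentary arrays. The groups overlapped almost wholly, and 3 of 7 exercised arrays were above the sedentary median. The means were 4421 ± 682.4 (SD, n = 7) in exercised and 4404 ± 830.2 (n = 7) in sedentary tissue, a difference of 0.01 on the log2 scale (SE 0.12, 95% interval -0.25 to 0.28, adjusted p = 0.966). The interval allows a change of either sign within these bounds. The other probe sets of Cpt1a, both of a kind whose probes may also match related transcripts, differed by -0.07 (SE 0.11) and -0.01 (SE 0.13).

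The probe set annotated to Gm44502, Cpt1b and Chkb had a lowest signal of 1925, a median of 6060 and a highest of 7579 on exercised arrays, against 346.6, 926.7 and 2283 on sedentary arrays. Exercised array 2 (1925) and sedentary array 1 (2283) were the arrays by which the groups overlapped: 6 of 7 exercised arrays stood above every sedentary one, and 6 of 7 sedentary arrays stood below every exercised one. Chkb encodes a choline kinase whose gene lies next to Cpt1b, and RefSeq lists Gm44502 with the synonym Chkb-Cpt1b. Mean signals were 5308 ± 1839 (n = 7) in exercised and 1031 ± 607.1 (n = 7) in sedentary tissue, and limma gave a rise of 2.39 (SE 0.34, 95% interval 1.66 to 3.11, adjusted p = 0.00203). Among 12946 features its difference ranked 26, counted from the largest rise. It had to be added to the fit, which otherwise held probe sets with 1 symbol. Without sedentary arrays 5 and 7 this probe set rose by 2.04 (SE 0.31, adjusted p = 0.00332).

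Whether the isoforms changed unequally, as far as the shared probe set stands for Cpt1b, was tested on the log2 ratio of both probe sets within each array, which cancels any scaling of the array. The levels themselves are not compared, since each probe set has its own brightness. Relative to Cpt1a, the Gm44502, Cpt1b and Chkb probe set lay between -1.10 and 0.79 log2 units on exercised arrays (median 0.17) and between -3.88 and -0.51 on sedentary arrays (median -2.06). The lowest exercised array was again array 2 and the highest sedentary array again array 1. The mean ratio was 2.37 higher in exercised tissue (95% interval 1.37 to 3.37), above the sedentary median on 7 of 7 arrays, with an exact two-sided permutation p of 0.00117 over 3432 assignments of arrays to groups (0.00466 after Benjamini-Hochberg adjustment over 4 isoform pairs). The smallest p this test can give is 0.000583. Without sedentary arrays 5 and 7 the mean ratio was 1.92 higher in exercised tissue (exact permutation p = 0.00253, adjusted p = 0.0101).

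**Figure D2:**
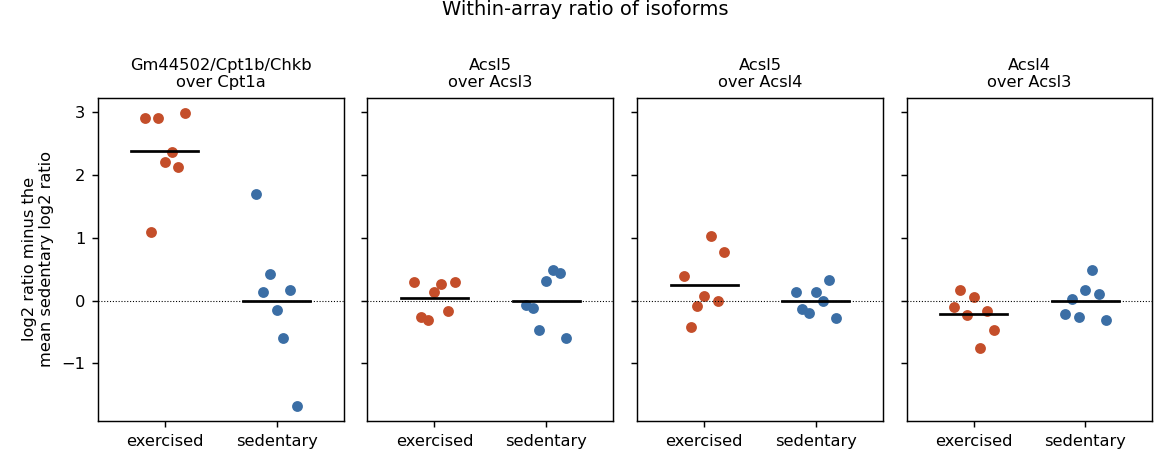
Log2 ratio of 2 probe sets within each array, minus the mean ratio of the sedentary arrays, for the Cpt1 pair and the 3 Acsl pairs. Points are arrays, exercised left and sedentary right, and bars are group means. The mean of the Cpt1 pair stands 2.37 log2 units higher in exercised tissue, while those of the Acsl pairs differ by -0.21 to 0.25.

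Cpt2, the transferase of the inner membrane that frees acyl-CoA inside the mitochondrion, rose. Its signals had a lowest value of 13930, a median of 16441 and a highest of 22018 on exercised arrays, against 5341, 9437 and 10907 on sedentary arrays. Each exercised array was above every sedentary one, which was the case for 1.95% of all genes. Sedentary array 5 was the lowest, and the groups were apart with or without it. Means were 17490 ± 2928 (n = 7) in exercised and 9198 ± 1940 (n = 7) in sedentary tissue, a 1.92-fold rise on the log2 scale (0.94, SE 0.15, 95% interval 0.62 to 1.26, adjusted p = 0.00304). Without sedentary array 5 the rise was 0.82 (SE 0.11, adjusted p = 0.00155), and without arrays 5 and 7 it was 0.77 (SE 0.11, adjusted p = 0.00259). The other probe set of Cpt2 differed by 0.63 (SE 0.19, adjusted p = 0.0764 over all probe sets), with 6 of 7 exercised arrays above every sedentary one. It is of the kind whose probes may also match related transcripts.

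Crat, carnitine acetyltransferase, moves acetyl and other short acyl groups between coenzyme A and carnitine and rose too. Its signals had a lowest value of 9235, a median of 10012 and a highest of 13070 on exercised arrays, against 4653, 6965 and 8483 on sedentary arrays. The groups did not overlap, and sedentary array 5 was again the lowest. Means were 10534 ± 1387 (n = 7) in exercised and 6743 ± 1154 (n = 7) in sedentary tissue, a rise of 0.65 (SE 0.12, 95% interval 0.40 to 0.90, adjusted p = 0.00526). Leaving out sedentary array 5 gave 0.56 (SE 0.09, adjusted p = 0.00311). Leaving out sedentary arrays 5 and 7 gave 0.55 (SE 0.10, adjusted p = 0.00633). The second probe set, at 7113 ± 457.3 in exercised and 4708 ± 963.5 in sedentary tissue (n = 7 each), rose by 0.62 (SE 0.13, adjusted p = 0.0121 over all probe sets), also with no overlap. This second probe set, too, is of the kind whose probes may also match related transcripts. The third differed by 0.45 (SE 0.14, adjusted p = 0.093). All probe sets of Cpt2 and Crat thus had positive differences, and 7 of 7 exercised arrays were above the sedentary median in each.

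Slc22a5 (also called Octn2) is the transporter that brings carnitine into the cell. Its signals had a lowest value of 3126, a median of 3751 and a highest of 4647 on exercised arrays, against 2539, 2947 and 4593 on sedentary arrays. Sedentary array 7, at 4593, stood among the highest exercised arrays, while 5 of the 7 sedentary arrays were below every exercised one. Means were 3819 ± 574.0 (n = 7) in exercised and 3223 ± 684.9 (n = 7) in sedentary tissue, a difference of 0.25 (SE 0.13, 95% interval -0.02 to 0.52, adjusted p = 0.255). Without sedentary arrays 5 and 7 it rose (0.40, SE 0.10, adjusted p = 0.036), the only alternative of 27 in which it passed. Its other probe set differed by -0.04 (SE 0.15), with 2 of 7 exercised arrays above the sedentary median, so the probe sets of this gene did not point the same way.

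**Figure D3:**
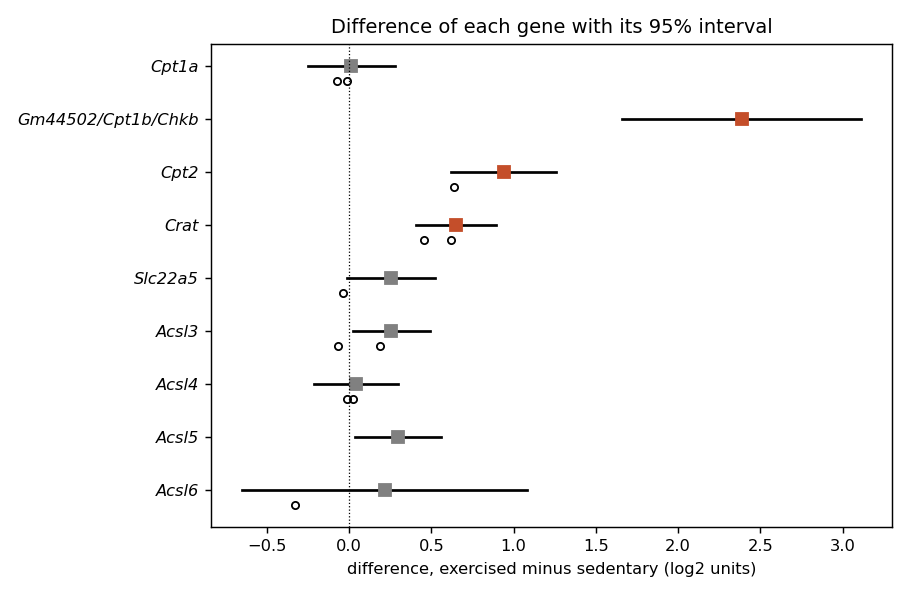
Difference between exercised and sedentary arrays (log2 units) for the chosen probe set of each gene, with its 95% interval from limma (squares, coloured where the adjusted p was under 0.05), and for the other probe sets of the gene (open circles). The Gm44502, Cpt1b and Chkb probe set (2.39), Cpt2 (0.94) and Crat (0.65) lie to the right of 0, and the intervals of Cpt1a, Acsl4, Slc22a5 and Acsl6 span it.

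To show the start regions of the Cpt pair that has promoters in the table used, the 250 bases before the transcription start of Cpt2, which rose, and of Cpt1a, which did not pass the test, are given 5′ to 3′ on the gene's strand (RefSeq, GRCm38.p6; Cpt2 at chr4:107923590-107923839, minus strand, Cpt1a at chr19:3323051-3323300, plus strand). Capitals mark the GC box (GGGCGG), the CCAAT box (whose letters are its name) and the nuclear receptor half-site (AGGTCA), each searched on both strands. The matches did not overlap one another in these windows.
Cpt2: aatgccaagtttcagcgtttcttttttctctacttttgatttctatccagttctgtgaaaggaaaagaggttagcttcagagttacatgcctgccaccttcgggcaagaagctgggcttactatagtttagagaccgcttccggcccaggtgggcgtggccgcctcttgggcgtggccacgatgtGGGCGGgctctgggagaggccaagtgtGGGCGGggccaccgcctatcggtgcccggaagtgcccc
Cpt1a: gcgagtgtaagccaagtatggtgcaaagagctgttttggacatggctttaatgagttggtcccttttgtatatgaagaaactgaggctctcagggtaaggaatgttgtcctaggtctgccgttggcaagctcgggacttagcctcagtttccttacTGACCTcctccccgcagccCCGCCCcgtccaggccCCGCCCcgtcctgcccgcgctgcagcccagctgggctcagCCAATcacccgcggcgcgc

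Cpt2 held 2 GC boxes, at -65 and -38 relative to the start, and Cpt1a held 2, at -75 and -59. Cpt1a also had a CCAAT box at -19 and a nuclear receptor half-site at -94, neither of which was in the Cpt2 window. Of all 32851 promoter windows of that length, 32.7% held a GC box, 33.8% a CCAAT box and 14% a nuclear receptor half-site on either strand. The E-box (CACGTG), held by 6.02% of all windows, was in neither. The TATA box, searched as TATAAA and held by 12.4%, was in neither as well. The cAMP response element half-site, searched as TGACG, was likewise in neither. The GC content was 56.8% for Cpt2 and 59.6% for Cpt1a, against a median of 52.4% over all windows. A match describes letters and is not a measured binding site.

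The long-chain acyl-CoA synthetases differ in where they sit and which fatty acids they take. Acsl5, found at mitochondria and the endoplasmic reticulum, had a lowest signal of 7663, a median of 9686 and a highest of 12912 on exercised arrays, against 6651, 8187 and 9931 on sedentary arrays. Exercised arrays 1, 5 and 7 were above every sedentary array, and the other 4 lay among them. The means were 9978 ± 1986 (n = 7) in exercised and 8046 ± 1076 (n = 7) in sedentary tissue, a difference of 0.30 (SE 0.12, 95% interval 0.04 to 0.56, adjusted p = 0.174). Acsl5 has 1 probe set.

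Acsl3, an isoform of the endoplasmic reticulum and of growing lipid droplets, had a lowest signal of 1068, a median of 1161 and a highest of 1287 on exercised arrays, against 761.9, 1010 and 1228 on sedentary arrays. The exercised arrays formed a narrow band that ran from above the sedentary median to just past the highest sedentary array. Means were 1168 ± 79.9 in exercised and 982.5 ± 187.7 in sedentary tissue (n = 7 each), a difference of 0.26 (SE 0.11, 95% interval 0.02 to 0.49, adjusted p = 0.191). Its other probe sets gave 0.19 (SE 0.15) and, below the filter, -0.07 (SE 0.17). The chosen probe set of Acsl3 is of a kind whose probes may also match related transcripts.

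Acsl4, which prefers arachidonic acid and other polyunsaturated fatty acids, had a lowest signal of 3474, a median of 4910 and a highest of 6698 on exercised arrays, against 4089, 4839 and 5934 on sedentary arrays. The exercised arrays spanned the whole sedentary range and exceeded it at both ends. Means were 5003 ± 976.4 in exercised and 4803 ± 595.7 in sedentary tissue (n = 7 each), a difference of 0.04 (SE 0.12, 95% interval -0.21 to 0.30, adjusted p = 0.859), and its other probe sets differed by -0.01 (SE 0.13) and 0.02 (SE 0.20).

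Acsl6, best known from brain, was dim. The chosen probe set had a lowest signal of 24.1, a median of 286.5 and a highest of 684.9 on exercised arrays, against 124.4, 267.2 and 339.2 on sedentary arrays, and its mean over all arrays (302.1) was under the filter of 389.7. Exercised array 4 was far below the rest and exercised arrays 3 and 6 far above. Fitted without the filter, Acsl6 differed by 0.22 (SE 0.41, 95% interval -0.66 to 1.09, adjusted p = 0.824). At this signal a change could not be measured with useful precision.

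Among the isoforms that passed the filter, no pair was shown to change unequally. The ratio of Acsl5 to Acsl4 had a median of 0.81 log2 units on exercised arrays and of 0.74 on sedentary arrays, with a difference of the means of 0.25 (95% interval -0.20 to 0.71, exact permutation p = 0.263, adjusted p = 0.351 over 4 pairs). The ratio of Acsl4 to Acsl3 differed by -0.21 (95% interval -0.57 to 0.13, exact permutation p = 0.212, adjusted p = 0.351). The ratio of Acsl5 to Acsl3 differed by 0.04 (95% interval -0.38 to 0.47, exact permutation p = 0.843, adjusted p = 0.843). These intervals allow unequal changes of up to 0.71, 0.57 and 0.47 log2 units, so they do not show that the isoforms moved alike.

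The windows before the starts of Acsl3 and Acsl5, the isoforms with the next largest differences, are shown in the same way because they are built unlike each other (RefSeq, GRCm38.p6; Acsl3 at chr1:78657575-78657824, plus strand, Acsl5 at chr19:55253119-55253368, plus strand; capitals as above).
Acsl3: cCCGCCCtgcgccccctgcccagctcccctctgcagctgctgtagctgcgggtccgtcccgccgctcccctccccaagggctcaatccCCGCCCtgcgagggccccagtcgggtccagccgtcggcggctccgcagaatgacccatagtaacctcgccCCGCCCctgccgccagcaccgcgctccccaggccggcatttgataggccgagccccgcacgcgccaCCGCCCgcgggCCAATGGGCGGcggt
Acsl5: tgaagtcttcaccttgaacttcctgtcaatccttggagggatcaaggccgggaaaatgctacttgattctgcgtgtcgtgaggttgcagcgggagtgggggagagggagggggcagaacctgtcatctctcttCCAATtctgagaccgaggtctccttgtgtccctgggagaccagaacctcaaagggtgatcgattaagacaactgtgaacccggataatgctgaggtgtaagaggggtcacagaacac

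Acsl3 had a GC content of 75.6%, 5 GC boxes (the nearest at -10) and a CCAAT box at -15, directly before it. Acsl5 had a GC content of 52.8%, no GC box and a CCAAT box at -117. None of E-box, TATA box, nuclear receptor half-site and cAMP response element half-site was in either window. Slc22a5 had 3 GC boxes and Acsl4 had 2 that overlap each other, and each also had a cAMP response element half-site, a motif that 17.8% of all windows held.

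The Gm44502, Cpt1b and Chkb signal was set beside the markers of the cell types that could contribute it. Of 10 brown and beige adipocyte markers tested, 4 rose (Ucp1, Cox7a1, Elovl3 and Cox8b), where 4.0% of all genes rose. Cidea (2.21), Otop1 (1.54), Kcnk3 (1.52), Prdm16 (0.39), Ebf2 (0.19) and Dio2 (0.01) did not pass the test. The median difference of the 10 was 1.80. The summed signal of the 10 ranged from 57462 to 169336 on exercised and from 7281 to 58801 on sedentary arrays. Ucp1, the uncoupling protein of brown and beige fat, had a lowest signal of 10273, a median of 33612 and a highest of 51867 on exercised arrays, against 67.3, 1108 and 9989 on sedentary arrays, with no overlap. Across arrays within each group, the mean log2 level of these markers and that of the probe set ranked the arrays identically, from array 2 to array 7 in the exercised group and from array 7 to array 1 in the sedentary group. Pearson's r was 0.955 in the exercised group and 0.948 in the sedentary group, and Spearman's rho was 1 in each (exact permutation p = 0.000397 for r and rho, the smallest possible for 7 arrays, and 0.000794 after adjustment over 4 relations). Without the 2 arrays farthest from the median, r over the 5 left was 0.829 in the exercised group and 0.954 in the sedentary group. The relation was noticed in these data and then computed on them.

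Markers of skeletal muscle, which also uses Cpt1b, were uneven between arrays. Of 21 tested, 15 were higher in exercised tissue at an unadjusted p under 0.05, against 11.3% of all genes. At limma's threshold 0 of the 21 passed, and the median difference of the 21 was 2.85. Their summed signal ranged from 12742 to 906694 on exercised and from 10176 to 338753 on sedentary arrays, and none of the defining markers was at 0 (Ckm, muscle creatine kinase, was lowest at 479.8 on exercised and 295.8 on sedentary arrays). The mean log2 level of these markers was 12.42 ± 2.68 in exercised and 9.82 ± 1.85 in sedentary tissue (SD, n = 7 each). Acta1, skeletal muscle actin, had a median of 55770 on exercised and 3291 on sedentary arrays, with overlapping groups (2.11, SE 1.06, adjusted p = 0.258). Within groups, r with the muscle markers was -0.0898 in the exercised group (rho = -0.179) and 0.604 in the sedentary group (rho = 0.679), and none of these passed an exact permutation test. In the exercised group the exact p was 0.988 for r and 0.713 for rho (the same after adjustment over 4 relations). In the sedentary group the exact p was 0.160 for r and 0.110 for rho (0.213 and 0.146 adjusted). Without the 2 farthest arrays r was -0.138 in the exercised group and 0.261 in the sedentary group. With the mean of the muscle markers as a covariate, the probe set rose by 2.21 (SE 0.40, adjusted p = 0.0171), Cpt2 by 0.95 (SE 0.18, adjusted p = 0.0209) and Crat by 0.65 (SE 0.14, adjusted p = 0.0369).

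**Figure D4:**
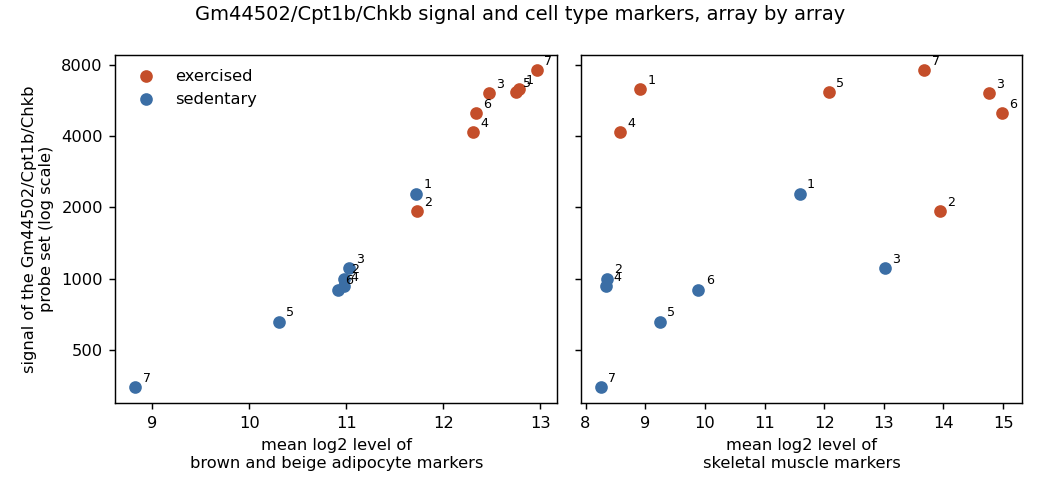
Signal of the Gm44502, Cpt1b and Chkb probe set (log scale) against the mean log2 level of brown and beige adipocyte markers (left) and of skeletal muscle markers (right), 1 numbered point per array, exercised and sedentary in different colours. Within groups r is 0.955 (exercised) and 0.948 (sedentary) with the brown and beige markers and -0.0898 (exercised) and 0.604 (sedentary) with the muscle markers. The cells that gave the signal were not tested.

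The medians of the remaining marker lists lay nearer to 0 than those of the brown and beige and muscle lists. Mature adipocyte markers had a median difference of 0.12 (0 of 8 called), endothelial markers -0.01 (0 of 6), and progenitor and fibroblast markers 0.01 (0 of 7). Macrophage markers had a median of -0.26 (1 of 10, Tyrobp, fell), lymphocyte markers -0.60 (0 of 11) and epithelial markers -0.14 (1 of 6, Epcam, fell). From which cells the signal of the Gm44502, Cpt1b and Chkb probe set came, brown or beige adipocytes and muscle included, was not tested.

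The genes whose deviations from the group mean were most like those of each member, over 14 arrays and all genes tested, differed between members. For the Gm44502, Cpt1b and Chkb probe set they were Cox7a1, itself one of the brown and beige markers (r = 0.956, rho = 0.912), Gpd2 (r = 0.943) and Fabp3 (r = 0.930), known for oxidative phosphorylation, the glycerol phosphate shuttle and fatty acid binding in oxidative tissues. For Cpt2 they were Pdha1, a pyruvate dehydrogenase subunit (r = 0.965, rho = 0.934), Pla1a (r = 0.961) and the complex I subunit Ndufb9 (r = 0.960). For Crat they were Radil (r = 0.912), Coasy, which completes coenzyme A synthesis (r = 0.911), and Chdh (r = 0.908). For Cpt1a they were Megf11 (r = 0.894), Rgs9 (r = 0.891) and Dnah8 (r = 0.888). Slc22a5 was nearest to Atp2a2 (r = 0.863, rho = 0.626), Xdh (r = 0.845) and Tmem37 (r = 0.838). Acsl3 was nearest to Anapc16 (r = 0.871), Oxsr1 (r = 0.851) and Mamdc2 (r = 0.848). Acsl4 was nearest to Atf4 (r = 0.928), Caap1 (r = 0.895) and 9630050P21Rik (r = 0.888), and Acsl5 to Slc39a9 (r = 0.926), Gfpt2 (r = 0.859) and Mgat1 (r = 0.847). Between members the same measure was 0.886 for Cpt2 with Crat, -0.711 for Cpt2 with Acsl4, -0.774 for Crat with Acsl4 and -0.516 for Cpt1a with the Gm44502, Cpt1b and Chkb probe set. Among sedentary arrays, array 5 was the lowest for Cpt2 (5341) and Crat (4653) and the highest for Acsl4 (5934). How far the correlations among Cpt2, Crat and Acsl4 rest on that array was not tested. All these points share their arrays, and correlations picked as the highest among all genes are high by selection.

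Genes around the shuttle were read from the same fit, in which 4.0% of all genes rose. In the rest of carnitine transport and synthesis 2 of 7 tested rose (median difference 0.14). Slc25a20, the carrier that exchanges acylcarnitine for carnitine across the inner membrane between Cpt1 and Cpt2, had a median signal of 17723 on exercised and 6511 on sedentary arrays and rose by 1.26 (SE 0.16, adjusted p = 0.00143). Its other probe set rose too. Aldh9a1, a dehydrogenase of carnitine synthesis, rose by 0.47 (SE 0.08), with another probe set at 0.13 that was not called. Crot, the peroxisomal carnitine octanoyltransferase, differed by 0.13 (SE 0.08), and Cpt1c, the brain isoform of Cpt1, by -0.07 (SE 0.17). Within the shuttle, Slc25a20, Cpt2, Crat and the probe set shared by Gm44502, Cpt1b and Chkb thus rose. Cpt1a and the uptake transporter Slc22a5 did not pass the test.

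Of the 7 genes that set malonyl-CoA, the inhibitor of Cpt1, 5 rose and 0 fell (median 0.75). Acacb, the acetyl-CoA carboxylase at the outer mitochondrial membrane, had a median signal of 10448 on exercised and 4161 on sedentary arrays and rose by 1.48 (SE 0.23, adjusted p = 0.00304). Acaca, the carboxylase of the cytosol, rose by 0.79 (SE 0.20), with another probe set at 0.48 that was not called. Mlycd, the decarboxylase that breaks malonyl-CoA down, rose as well (0.63, SE 0.13), as did the citrate carrier Slc25a1 (0.69, SE 0.14). Acly, which makes the acetyl-CoA used, was the other gene called. Genes that make the inhibitor and the gene that removes it thus moved in the same direction.

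Of 11 other acyl-CoA synthetases and fatty acid transport proteins tested, 3 rose and 0 fell (median 0.42). These were Slc27a2 (2.88, SE 0.53), a very-long-chain synthetase with fatty acid transport activity, Slc27a1 and Acsm3. Slc27a1 (0.98, SE 0.16, with another probe set at 1.33 that rose too) is a fatty acid transport protein of muscle and fat. Acsm3 (0.85, SE 0.19) is a medium-chain enzyme. Slc27a2 was dim on sedentary arrays, with a lowest signal of 43.3, a median of 162.8 and a highest of 952.7. On exercised arrays these were 543.6, 1598 and 3227. Its sedentary mean of 273.9 was under the filter, which was set on the mean over all arrays. The size of its rise therefore depends on the constant added to the signal, and how far was not tested. In mitochondrial beta-oxidation, which receives the acyl-CoA released by Cpt2, 12 of 15 rose (median 0.76), among them Hadhb (0.78, SE 0.11, with other probe sets at 0.17 and 0.89, of which 1 was called), Acadl (0.87, SE 0.12), Acadvl (1.05, SE 0.17) and Hadha (0.98, SE 0.16). The chosen probe set of Hadhb is of the kind whose probes may also match related transcripts. Of 8 nuclear receptors and coactivators, 4 rose: Ppara, which activates genes of fatty acid oxidation (1.76, SE 0.24), Esrra (0.73, SE 0.11, with another probe set at 0.19), Ppargc1b (0.98, SE 0.21) and Ppargc1a (1.10, SE 0.28). In each list around the shuttle, the share that rose was above the 4.0% of all genes. No list was tested as a whole, and the lists were chosen with earlier results of these data known.

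**Figure D5:**
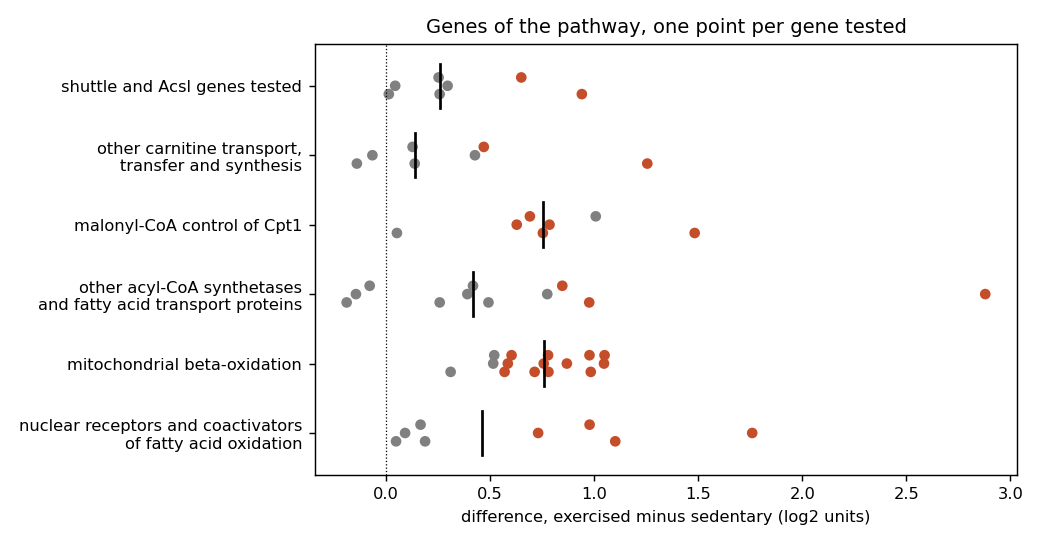
Difference between exercised and sedentary arrays (log2 units) for each gene tested in the shuttle and Acsl group and in 5 lists around it. Points are genes, coloured where the adjusted p was under 0.05, and bars are list medians. The median is 0.26 for the shuttle and Acsl genes tested, 0.76 for beta-oxidation and 0.75 for the malonyl-CoA list.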

How the data were processed

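Biotin-labelled cRNA was made from total RNA of frozen fat depots, per the labels' protocols, and hybridised to Affymetrix arrays. The authors deposited intensity values (signals) on a linear scale for 45101 probe sets on 14 arrays, which per the submitters' processing notes come from MAS5, whose version is not given in the sources used here. With 2% of values dropped at either end, each array's mean was 1500.01.

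Values were transformed as log2(signal + 46.7). The brightest probe set on average stood for its gene, and means under 389.7 (the 40th percentile) were left out. Symbols came from the platform annotation: 34945 probe sets had 1 symbol (34741 matched by Entrez identifier to GRCm38.p6 genes), 932 several and 9160 none. Those with several or none stayed out, except the Gm44502, Cpt1b and Chkb probe set, added as 1 feature after the annotation was seen. Groups came from the titles. The comparison used limma 3.58.1 (R 4.3.3; lmFit, eBayes with trend), two-sided, Benjamini-Hochberg adjusted over all genes. Isoform ratios were tested by exact permutation in Python 3.11.15, with intervals by inversion of that test. The code was tested on simulated data.

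The members and lists were chosen with earlier results of these data known. Named were all members, up to 4 called genes of each pathway list by smallest p, the defining markers Ucp1, Ckm, Acta1 and Adipoq, and each member's 3 nearest genes. Acly, Crot, Cpt1c, Tyrobp and Epcam fall outside this rule and were added after their values were seen. The same holds for the brown and beige adipocyte markers other than Ucp1. The replicate numbers were not taken as pairs.

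Alternatives were quantile normalisation, median centring, pseudocounts of 1 and 200, no filter, a filter at the 60th percentile, the mean of all probe sets, all probe sets separately, no trend, array weights, a replicate block, muscle markers as a covariate, and leaving out each array or sedentary arrays 5 and 7.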

Additional observations from a re-analysis of the deposited data

Results flagged for a closer look

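In 40 groups of 7 arrays (20 probe sets in exercised and in sedentary tissue), 2 held an array whose distance from the nearest of the others on the log2(signal + 46.7) scale was more than 0.568 of the group's range, Dixon's critical value at 95%; chance gives about 1 such group in 20. The first was Acsl6, where exercised array 4 had a signal of 24.1 and the other exercised arrays had 247.6 to 684.9 (gap over range 0.610 on that log2 scale). The second was the chosen probe set of Cpt2, where sedentary array 5 had 5341 and the other sedentary arrays had 8402 to 10907 (0.634 on the same scale). The same array had the lowest signal of Crat, 4653, and the lowest mean of mature adipocyte markers.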

How the results depend on the processing

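The number of arrays and the dimness of Acsl6 limit what could be measured. Cpt2 and the Gm44502, Cpt1b and Chkb probe set were past the threshold in all 27 alternatives (0.77 to 0.99 and 2.04 to 2.61), and Crat in 26 of 27 (0.55 to 0.71). Cpt1a, Acsl3, Acsl4 and Acsl5 passed in 0 of 27, and the sign of Cpt1a was positive in 21 of 27 and that of Acsl4 in 26 of 27. The labels tie no numbers together across groups, and correlations between the deviations of same-numbered arrays were 0.38, 0.29 and 0.33 for numbers 3, 4 and 7 but -0.10, -0.34, -0.43 and -0.08 for numbers 1, 2, 5 and 6, with 3 of 7 exercised arrays closest to their own number, so a pairing was not established. With the replicate block 162 genes were called in place of 716. Of the 7 members 1 was called (Cpt2), since Crat was at 0.65 with an adjusted p of 0.0649. The ratio of the Gm44502, Cpt1b and Chkb probe set to Cpt1a was 2.37 higher in exercised tissue. Its exact p was 0.0156, the smallest that 128 sign flips can give, and 0.0625 after adjustment over 4 pairs. With the Acsl pairs at exact p of 0.3125 to 0.844, no outcome for the Cpt1 pair could have passed. With the muscle covariate 222 genes were called, with 2 members. Leaving out 1 array gave 402 to 853 genes called, with the lowest counts without exercised arrays 7 (402), 3 (410), 5 (414) and 1 (425), while 2 members were called each time and the Cpt1 ratio ran from 2.09 to 2.65. Median centring called 547 genes higher and 86 lower, against 518 and 198, which shifts the share of higher calls but changed no member's call. The Acsl ratios were called in 0 of 21 alternatives for each of the 3 pairs. Slc22a5 passed without sedentary arrays 5 and 7 (0.40), which gave 3 members called.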
